A study of Mus musculus with 9 samples.

Results

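A joint of the limb begins as the interzone, a band of flattened cells that forms across a continuous cartilage template at the place of the future joint. Cells there switch off cartilage genes, switch on Gdf5, and later give rise to articular cartilage, ligament and synovium. Wnt ligands hold these cells out of the cartilage programme, and hyaluronan made by Has2 and bound by Cd44 takes part in opening the cavity. Shox2, the gene deleted here, is a homeodomain factor needed for the upper segments of the limb.

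The 10 genes described here are Gdf5, Gdf6, Wnt9a, Wnt4, Erg, Barx1, Trps1, Cd44, Has2 and Dcx, all known from forming joints, out of 24102 rows of the expression table. They were chosen by symbol with the mutant and control values of these same columns already known, Gdf5 for its difference between them. The mutant-control values below are therefore a description, and no test of them is read. A row of its own was found for 9 genes, and Trps1 shared its row with a microRNA gene. All 10 rows were at 1 FPKM or more in at least 3 columns, the minimum for the fit across 12314 rows. FPKM counts fragments per unit of transcript length, scaled to the size of the library.

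RNA was sequenced from green cells sorted out of dissociated mouse limbs at stage E12.5. Every sorted group carried Cre recombinase at 1 Shox2 allele and the Rosa mTmG reporter, whose membrane protein turns from red to green in cells that have had Cre. Controls, Shox2(Cre/+);Rosa(mTmG), kept a normal second allele. Mutants, Shox2(Cre/-);Rosa(mTmG), had a mutant one. The controls thus had a single normal copy of Shox2, and green cells are those of the Shox2 lineage, whether or not they still make it. The series has 9 samples, of which 3 are controls, 4 are mutants and 2 are whole limbs. The table used here holds 1 control and 1 mutant column for each of litters 1, 2 and 3. Litter 1 has 2 mutant samples, and the sources used here do not say which of them its column holds. Whole limbs were not analysed here. How many embryos made a column is not stated, so errors (SD, n = 3) are the spread between litter columns. In such sorted pools, fewer cells of a type and less RNA per cell cannot be told apart.

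Shox2 was at 217, 222 and 210 FPKM in the controls of litters 1, 2 and 3 and at 16.7, 18.3 and 96.9 FPKM in mutants. The mutant column of litter 3 thus held more Shox2 RNA than the other mutant columns. Limb mesenchyme genes were present in every column, with Prrx1 between 106 and 246 FPKM and Twist1 between 110 and 202 FPKM. Column depth is unknown, because the table holds no counts. Limma called 0 of 12314 rows (0%) between mutants and controls at an adjusted p under 0.05, and again 0 (0%) with litter as a block. At an unadjusted p under 0.05 there were 272 rows higher and 167 lower in the mutants, and 658 higher and 775 lower with the block.

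In the control columns Gdf5 had the highest level among the genes with a row of their own, at 21.3 ± 2.68 FPKM. Has2 followed at 17.1 ± 5.09 FPKM, and its range of 13.3 to 22.9 FPKM overlapped that of Gdf5, 19.2 to 24.3 FPKM. Erg was at 12.498 ± 0.8001 FPKM, and its highest control, 13.283 FPKM, lay close to the lowest of Has2, 13.3 FPKM. A group of 4 genes came next, Wnt9a at 7.09 ± 1.06, Barx1 at 6.54 ± 3.02, Wnt4 at 5.95 ± 1.97 and Dcx at 5.61 ± 0.614 FPKM. Their ranges overlapped, so no order among them holds beyond the spread. Gdf6 at 3.46 ± 0.838 FPKM and Cd44 at 1.70 ± 0.371 FPKM had the lowest means. The Gdf6 range of 2.50 to 4.04 FPKM overlapped that of Barx1, 3.22 to 9.13 FPKM, but not those of Wnt9a, Wnt4, Dcx or Cd44.

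**Figure D1:**
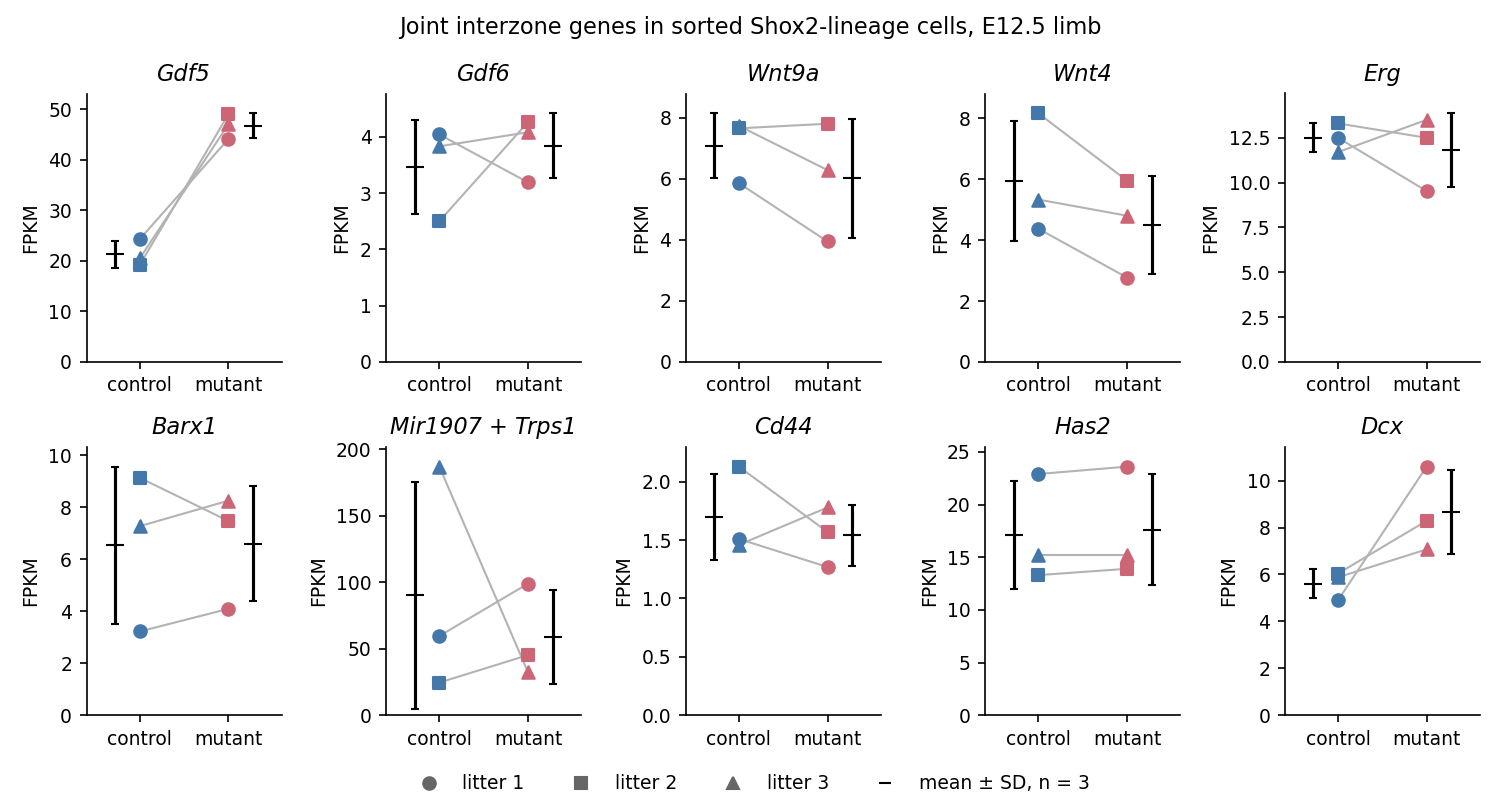
FPKM (vertical axes, from 0, scaled per gene) of each gene in control and mutant columns. Grey lines join the columns of a litter, and black bars give the mean ± SD of 3 columns. Gdf5 and Dcx are the panels in which every mutant point lies above every control point, and the control of litter 3 stands at 187 FPKM in the row that names Trps1.

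Gdf5 encodes a secreted ligand of the BMP family that acts mainly through the receptor Bmpr1b and marks the interzone from its start. It was at 24.3, 19.2 and 20.5 FPKM in the controls of litters 1, 2 and 3 and at 44.1, 49.0 and 47.0 FPKM in mutants. The groups lay far apart, and the mutant columns differed little among themselves. The means were 21.3 ± 2.68 and 46.7 ± 2.47 FPKM, a 2.19-fold difference, with ratios of 1.81, 2.56 and 2.29 within litters 1, 2 and 3. On the log2(FPKM + 1) scale, which understates differences of low genes, the mutants were 1.10 (SE 0.14) higher. This ranked 58 from the highest of 12314 rows. The mutants of litters 1 and 2 held more Xist than their controls, at 36.8 against 12.1 and 178 against 34.6 FPKM, and Y-linked genes were at 0 in the litter 2 mutant. The Gdf5 difference was 1.23 when litter 1 was left out and 0.99 when litter 2 was. The mutant of litter 3, with Shox2 at 96.9 FPKM, lay between the others in Gdf5. Its level did not differ between litters past the threshold (limma adjusted p = 0.875 for the litter term).

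Gdf6, the closest relative of Gdf5 and a ligand of wrist and ankle joints, had a smaller difference of mixed sign. It was at 4.04, 2.50 and 3.83 FPKM in controls and 3.19, 4.26 and 4.08 FPKM in mutants. The groups overlapped, with the mutant lower than its control in litter 1 and higher in litters 2 and 3. The log2 difference was 0.13 (SE 0.20). Gdf5 exceeded Gdf6 by 6.02, 7.67 and 5.36 times in the controls and by 13.8, 11.5 and 11.5 times in the mutants.

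The joint Wnt ligands had fitted differences below 0 whose size varied with the columns kept. Without the mutant column of litter 1 they were -0.0042 for Wnt9a and -0.09 for Wnt4. That setting leaves the litter 1 control, the lowest control for both genes, without its pair. Without the whole litter 1 pair they were -0.12 for Wnt9a and -0.26 for Wnt4. Wnt9a, which represses cartilage formation in the interzone, was at 5.86, 7.66 and 7.74 FPKM in controls and 3.95, 7.81 and 6.29 FPKM in mutants. The groups overlapped and the log2 difference was -0.24 (SE 0.24), with the mutant lower in litters 1 and 3. Wnt4, a ligand of the joint capsule and interzone, was at 4.37, 8.16 and 5.33 FPKM in controls and 2.77, 5.95 and 4.80 FPKM in mutants. It was lower in the mutant of all 3 litters, by ratios of 0.634, 0.730 and 0.901, yet the groups overlapped because the litters spread widely. The log2 difference was -0.34 (SE 0.30). Wnt4 was the 1 gene of the 10 lower in all 3 litters, where 22.3% of all tested rows were. The surface ectoderm also makes Wnt ligands, and the summed level of its 9 markers was 10.2 to 31.5 FPKM in controls and 10.5 to 15 FPKM in mutants. None of the 9 was at 0 in any column. The control of litter 2 was highest for both that sum and Wnt4, and the part of ectodermal cells in Wnt4 was not tested.

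Transcription factors of the interzone showed no shared direction. Erg, an ETS factor of articular cartilage precursors, was at 12.528, 13.283 and 11.684 FPKM in controls and 9.5332, 12.495 and 13.494 FPKM in mutants. The groups overlapped, with a log2 difference of -0.08 (SE 0.16). Erg is also made by endothelium, whose 12 markers summed to 17.6 to 24.8 FPKM in controls and 12.9 to 15.7 FPKM in mutants. These sums did not overlap, and no endothelial marker was at 0 in any column. Of the 5 markers tested, 0 were higher and 2 lower in all 3 litters, namely Cldn5, a tight junction protein, and Kdr, a VEGF receptor. Of all tested rows, 15.7% were higher and 22.3% lower in all 3 litters. The most abundant marker, Egfl7, a secreted endothelial protein, was at 10.1, 4.12 and 8.30 FPKM in controls and 6.18, 8.02 and 9.16 FPKM in mutants, with overlapping groups and 1 value above the lowest of Erg. The share of Erg RNA from endothelial cells was not tested.

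Barx1, a homeobox gene of joints and other mesenchyme, was at 3.22, 9.13 and 7.27 FPKM in controls and 4.09, 7.47 and 8.25 FPKM in mutants. Both columns of litter 1 were low, and the groups overlapped. The log2 difference was 0.06 (SE 0.38). Trps1, a GATA-type zinc-finger repressor of joints and cartilage, was counted in a row that also names Mir1907, a microRNA gene that overlaps it in RefSeq. That row was at 59.6, 24.5 and 187 FPKM in controls and 98.9, 45.2 and 32.4 FPKM in mutants. The mutant was higher in litters 1 and 2, by ratios of 1.66 and 1.84, and far lower in litter 3, by a ratio of 0.173. The highest column was 7.61 times the lowest. A range at least that wide was found in 2.95% of 12081 tested rows naming 1 gene and in 18.1% of 94 rows that name several genes with a microRNA. A level of Trps1 itself cannot be read from this row.

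Of the hyaluronan genes, Has2 had small differences within litters and Cd44 had differences of mixed sign. Has2, the main hyaluronan synthase of the embryo, was at 22.9, 13.3 and 15.2 FPKM in controls and 23.6, 13.9 and 15.2 FPKM in mutants. It was higher in all 3 litters, but by ratios of only 1.03, 1.05 and 1.01, and the log2 difference was 0.04 (SE 0.27). An antisense gene, Has2os, overlaps Has2 in RefSeq, and without a stated strand setting their reads cannot be told apart. Cd44, the cell surface receptor for hyaluronan, was at 1.51, 2.13 and 1.46 FPKM in controls and 1.27, 1.57 and 1.78 FPKM in mutants. Its ratios were 0.837, 0.740 and 1.22 in litters 1, 2 and 3. The groups overlapped, with a log2 difference of -0.08 (SE 0.17). Leukocytes also carry Cd44, and their 10 markers summed to 13.3 to 16.4 FPKM in controls and 11.9 to 23.5 FPKM in mutants. Ptprc, which encodes the pan-leukocyte protein CD45, was at 0.337 FPKM or less in all columns, and 4 of the 10 markers were at 0 in at least 1 column. The 3 markers that entered the fit were higher. Coro1a was at 5.27 to 8.03 FPKM, Cd68 at 1.56 to 4.71 FPKM and Laptm5 at 0.797 to 3.83 FPKM. The part of leukocytes in Cd44 was not tested.

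Dcx, a microtubule-binding protein of migrating neurons that also marks articular chondrocyte precursors, was the other gene whose groups did not overlap. It was at 4.90, 6.04 and 5.88 FPKM in controls and 10.6, 8.29 and 7.07 FPKM in mutants. The means were 5.61 ± 0.614 and 8.66 ± 1.80 FPKM, and the ratios were 2.16, 1.37 and 1.20 in litters 1, 2 and 3. The log2 difference was 0.54 (SE 0.18). It was 0.32 without the litter 1 pair, so litter 1 decided much of its size. Neuron and glia markers, 17 genes, summed to 89.3, 153 and 67.7 FPKM in controls and 169, 101 and 86.9 FPKM in mutants, and no marker was at 0. The mutant of litter 1 was highest both in this sum and in Dcx. In litter 2 the sum was lower in the mutant while Dcx was higher, and the part of nerve cells in Dcx was not tested. Dcx is X-linked, and Xist, which silences an X chromosome in females, stood at 178 FPKM in the mutant of litter 2 against 34.6 FPKM in its control. Of the Y-linked genes, Eif2s3y stood at 0 in that mutant against 23.9 FPKM in its control, and Kdm5d at 0 against 4.78 FPKM. Sex and genotype cannot be told apart in litter 2. Xist was also higher in the mutant of litter 1, at 36.8 against 12.1 FPKM in its control, where the Y-linked genes were present in both columns. The litter 3 columns were close, with Xist at 68.4 FPKM in the mutant against 73.0 FPKM. The Dcx ratio was largest in litter 1 and the Xist ratio in litter 2, and the part of Xist-bearing cells in Dcx was not tested.

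A deposited gene list, titled as genes directly repressed by Shox2, holds Dcx and Cd44 but none of the other 8. Of all tested rows, 7.71% carry a name on that list, and these samples may have served to choose it. Their windows of 250 bases before the transcript start are shown with that of Wnt4, the gene lower in 3 litters, from RefSeq promoters of GRCm38.p6. Capitals mark TAATTA, a palindrome that many homeodomain proteins bind.

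Dcx, chrX:143933220-143933469, minus strand: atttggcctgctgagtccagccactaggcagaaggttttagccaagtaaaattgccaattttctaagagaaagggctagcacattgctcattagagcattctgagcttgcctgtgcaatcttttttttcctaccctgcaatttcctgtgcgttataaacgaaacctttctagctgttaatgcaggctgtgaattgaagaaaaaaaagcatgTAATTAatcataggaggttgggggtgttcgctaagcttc

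Cd44, chr2:102901666-102901915, minus strand: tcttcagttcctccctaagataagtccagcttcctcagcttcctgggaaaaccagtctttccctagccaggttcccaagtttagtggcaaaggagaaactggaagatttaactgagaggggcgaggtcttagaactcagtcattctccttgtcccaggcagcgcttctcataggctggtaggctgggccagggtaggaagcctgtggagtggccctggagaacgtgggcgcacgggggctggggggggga

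Wnt4, chr4:137277385-137277634, plus strand: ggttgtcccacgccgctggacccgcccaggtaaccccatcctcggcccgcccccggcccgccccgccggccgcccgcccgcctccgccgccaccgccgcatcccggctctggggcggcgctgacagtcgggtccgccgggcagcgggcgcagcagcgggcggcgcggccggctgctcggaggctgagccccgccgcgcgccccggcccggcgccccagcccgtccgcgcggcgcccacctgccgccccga

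TAATTA occurred 1 time before this start of Dcx and 0 times before those of Cd44 and Wnt4. Windows were at hand for 6 of the 10 genes, with 9 starts, and 4 windows held it, from Erg and Dcx alone. The 2 Dcx windows overlap and share the site. Of 32851 RefSeq windows of the same length, 4.84% held it. G and C made up 41.6% of the Dcx window, 56.4% of the Cd44 window and 85.2% of the Wnt4 window, where the median over all windows was 52.4%. Gdf5, Gdf6, Trps1 and Has2 had no entry.

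**Figure D2:**
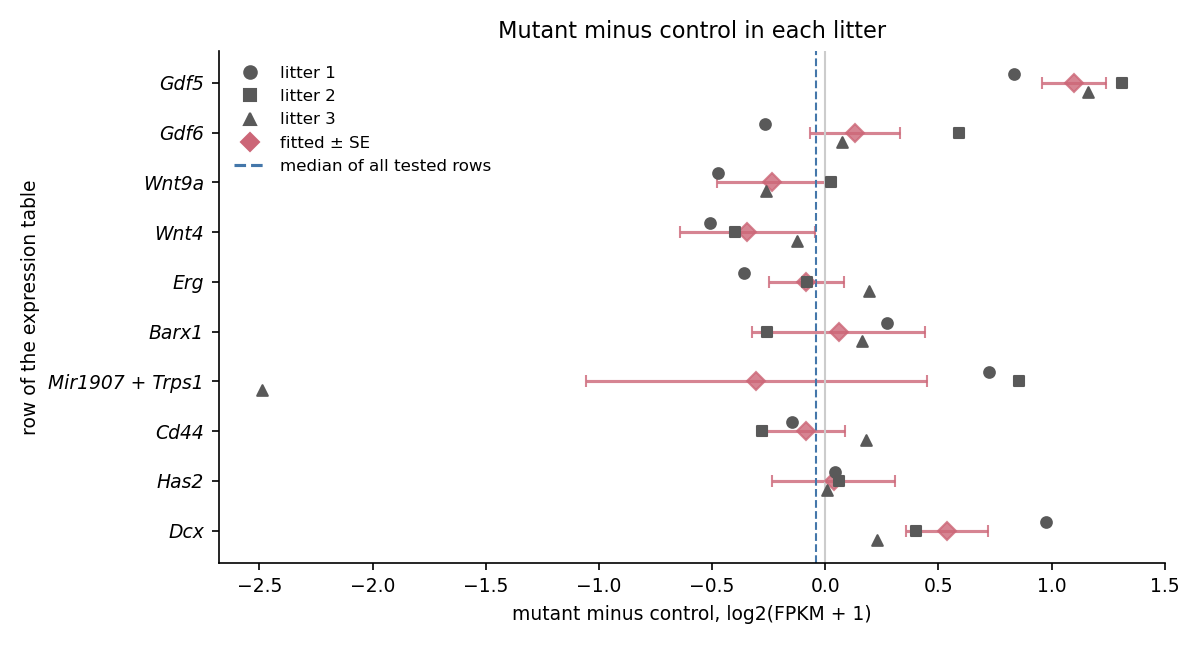
Mutant minus control on the log2(FPKM + 1) scale (horizontal axis) for each row. Grey symbols are the single litters, diamonds the fitted difference with its SE over 3 columns a group, and the dashed line the median of all tested rows, -0.04. Gdf5 lies at 0.83, 1.31 and 1.16 in litters 1, 2 and 3. Of the 10 rows, 8 have a fitted difference within 0.5 of 0. The share of all tested rows within 0.5 was not computed. Their median absolute difference was 0.137, so most of them lie within 0.5 too, and this does not set the 8 apart. The row naming Trps1 is among the 8, though it lies at 0.72, 0.86 and -2.49 in litters 1, 2 and 3.

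Set side by side, most of the other joint genes did not share the higher level that Gdf5 had in mutants. Of the 9 other rows, Dcx and Has2 were higher in the mutant of 3 litters, Wnt4 was lower in 3, and 6 had mixed signs. Their fitted differences ran from -0.34 to 0.54 with a median of -0.08, against -0.04 over all tested rows. Without the row naming Trps1 the median was -0.02. Among all tested rows, 15.7% were higher in 3 of 3 litters. Every mutant column lay above every control column for Gdf5 and Dcx and below for 0 members, against 4.22% and 5.03% of all tested rows. Since the genes were picked with these values known, nothing further is read from the counts. Rows higher in every litter numbered 3 of 10, and 4 of 10 without the litter 1, litter 2 or litter 3 pair, the fourth being Gdf6, Barx1 and the row naming Trps1 in turn. A pair left out leaves fewer litters that must go the same way, so the 15.7% is no share to set beside those 4. The share of all tested rows was not computed for those settings.

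Differences between litters, which played no part in the choice of genes, were tested for each row with genotype in the model. The litter term passed the threshold for 21.1% of all tested rows and for 3 of the 10 members, Barx1, Has2 and Wnt4. Barx1 was at 3.22 and 4.09 FPKM in litter 1 against 7.27 to 9.13 FPKM in the others (limma adjusted p = 0.0145). Has2 went the other way, at 22.9 and 23.6 FPKM in litter 1 against 13.3 to 15.2 FPKM in the others (limma adjusted p = 0.0160). Wnt4 was at 4.37 and 2.77 FPKM in litter 1 and at 4.80 to 8.16 FPKM in the others (limma adjusted p = 0.0305). These calls rest on litter 1, since without its pair limma gave adjusted p = 0.903 for Barx1, 0.770 for Has2 and 0.601 for Wnt4. Over all rows the calls fell from 2595 to 63 without that pair. Wnt9a missed the threshold (limma adjusted p = 0.0840), at 3.95 and 5.86 FPKM in litter 1, and passed without the litter 2 pair (limma adjusted p = 0.00455). The ratio of Wnt9a to Wnt4 was 1.24 ± 0.270 in the controls and 1.35 ± 0.0657 in the mutants. A normalisation note heads the columns of each litter in turn, so levels across litters may rest on separate scalings. Rpph1, the RNA of ribonuclease P, was at 5206 and 6692 FPKM in litter 1 and at most 6.14 FPKM in the other columns. Its part, and that of library preparation, in the litter differences was not tested.

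**Figure D3:**
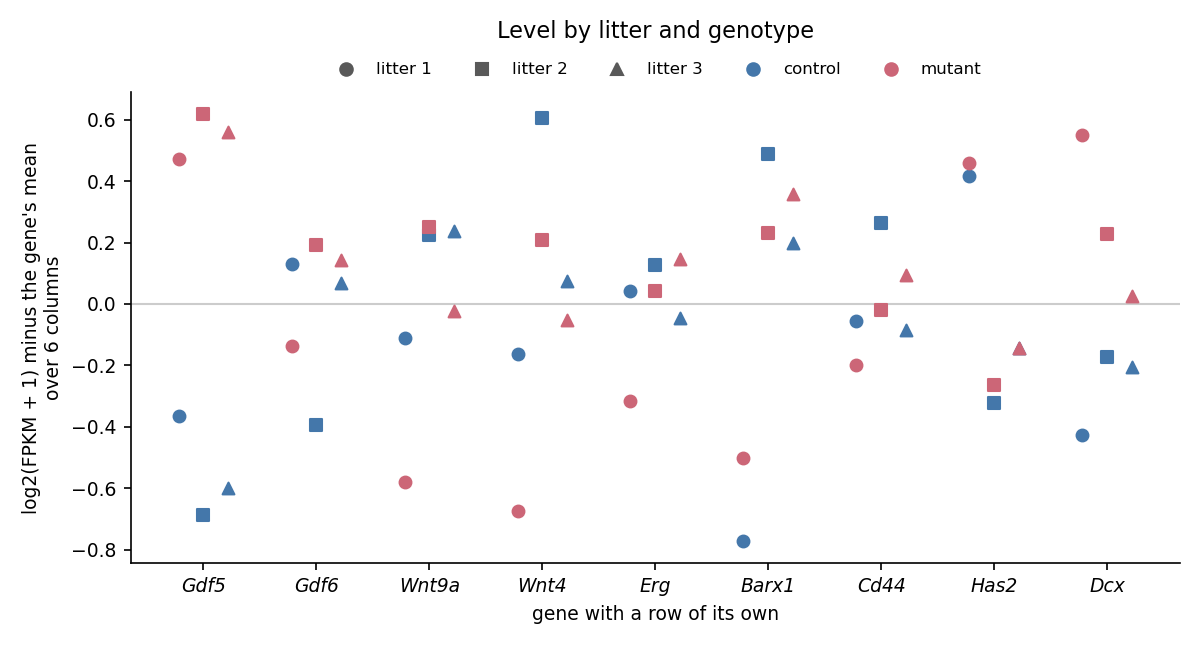
Level of the 9 genes with a row of their own (vertical axis, log2(FPKM + 1) minus the gene's mean over 6 columns), by litter (symbol) and genotype (colour). Colours separate for Gdf5 and Dcx. Barx1 and Has2 instead set litter 1 apart, low for Barx1 and high for Has2, whose control and mutant points of litter 3 coincide.

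The pattern of Gdf5 over the 6 columns was compared with 11014 rows that name 1 gene and average at least 2 FPKM. Most like it were Tnfrsf11b, Cbln2, Slc1a3, 1190002N15Rik and Nkd2. Pearson r on log2(FPKM + 1) ran from 0.990 to 0.998 over these columns, which share litters and genotype. Tnfrsf11b, a decoy receptor that limits osteoclast formation, was at 1.59, 1.34 and 1.37 FPKM in controls and 2.90, 3.09 and 2.95 FPKM in mutants. Nkd2, a feedback inhibitor of Wnt signalling, was at 14.1, 13.0 and 12.6 FPKM and at 19.5, 19.2 and 19.3 FPKM. None of the other 9 members was among the 5, but Cd44, averaging under 2 FPKM, and the row naming Trps1 could not appear. Gdf5 was chosen for its difference in these same columns, so nothing about the other members is read from that. Dcx was most like the phosphodiesterase gene Pde4d (r = 0.998 over 6 columns) and Phka1 (r = 0.988). Barx1 was most like Ddx47 and Tgds (r = 0.997 each), and Has2 like Zfp84 (r = 1.00) and Rpph1 (r = 0.999), which also set litter 1 apart. For Wnt9a these were Lgi2 and Mta2, for Wnt4 Lasp1 and Slc6a9, for Erg C1qtnf2 and Prdm2, for Gdf6 Smpd1 and Ndufaf3, and for Cd44 Mrps18a and Akirin2, with r from 0.983 to 0.998. Each is a likeness over 6 columns alone.

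The wider joint list held 28 other genes, of which 24 were tested and 0 passed the threshold, where 0% of all tested rows did. It had 7 genes higher and 5 lower in all 3 litters, against 15.7% and 22.3% of all tested rows. Without overlap 2 lay above and 0 below, against 4.22% and 5.03% of all tested rows. The median log2 difference was 0.03. Enpp2, the lysophosphatidic acid-producing enzyme autotaxin, was at 17.5, 14.7 and 16.0 FPKM in controls and 40.3, 36.8 and 28.4 FPKM in mutants. The hedgehog effector Gli3 was at 23.9, 19.4 and 25.3 FPKM in controls and 26.8, 29.6 and 31.2 FPKM in mutants, also without overlap. Bmp4, a BMP ligand, was higher in 3 litters with overlapping groups, at 28 ± 2.51 and 37.0 ± 9.72 FPKM. Some genes of the list were sparse. Prg4, the lubricin of mature joint surfaces, reached at most 0.586 FPKM. Wnt16, another joint ligand, was at 0.549, 0.290 and 0.584 FPKM in controls and 0.866, 1.40 and 1.02 FPKM in mutants. Its groups did not overlap, but it was too low to enter the fit and is not in the counts above. Osr1 and Osr2, paired zinc-finger factors of joints, lay on opposite sides of 0, with Osr1 lower (log2 difference -0.44, SE 0.27) and Osr2 higher (0.48, SE 0.42) in 3 litters each. These 4 genes were named after their values were seen.

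Around the ligand itself, other genes of the GDF and BMP pathway, its receptors, antagonists and outputs, were listed. Of 24 genes, 23 were tested and 0 passed the threshold, where 0% of all tested rows did. In all 3 litters 13 were higher and 2 lower, where 15.7% and 22.3% of all tested rows were, and the median log2 difference was 0.19. The mutant columns lay above all controls for 6 genes and below for 2, against 4.22% and 5.03% of all tested rows. Chrdl1, a secreted BMP antagonist, was at 14.2, 9.40 and 13.2 FPKM in controls and 27.6, 28.8 and 28.1 FPKM in mutants. Grem1, another antagonist, was at 10.4 ± 2.12 and 15.9 ± 3.18 FPKM, also without overlap. Nog, the antagonist noggin that joints require, was at 6.0, 9.55 and 7.74 FPKM in controls and 9.19, 16.5 and 11.8 FPKM in mutants, higher in 3 litters with overlapping groups. Bmpr1b, the preferred receptor of Gdf5, was at 6.18, 7.92 and 8.45 FPKM in controls and 9.04, 10.5 and 9.26 FPKM in mutants, without overlap. Id2, a target of BMP signalling, was at 106 ± 13.5 and 153 ± 23.1 FPKM, while its relative Id4 lay below all controls, at 15.8 ± 4.86 and 10.8 ± 0.749 FPKM. Id1, Id3, Smad6 and Smad7 were lower in the mutant of litter 1 and higher in those of litters 2 and 3, with overlapping groups. Nog, Bmpr1b, Id4, Id1, Id3, Smad6 and Smad7 were named after their values were seen.

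**Figure D4:**
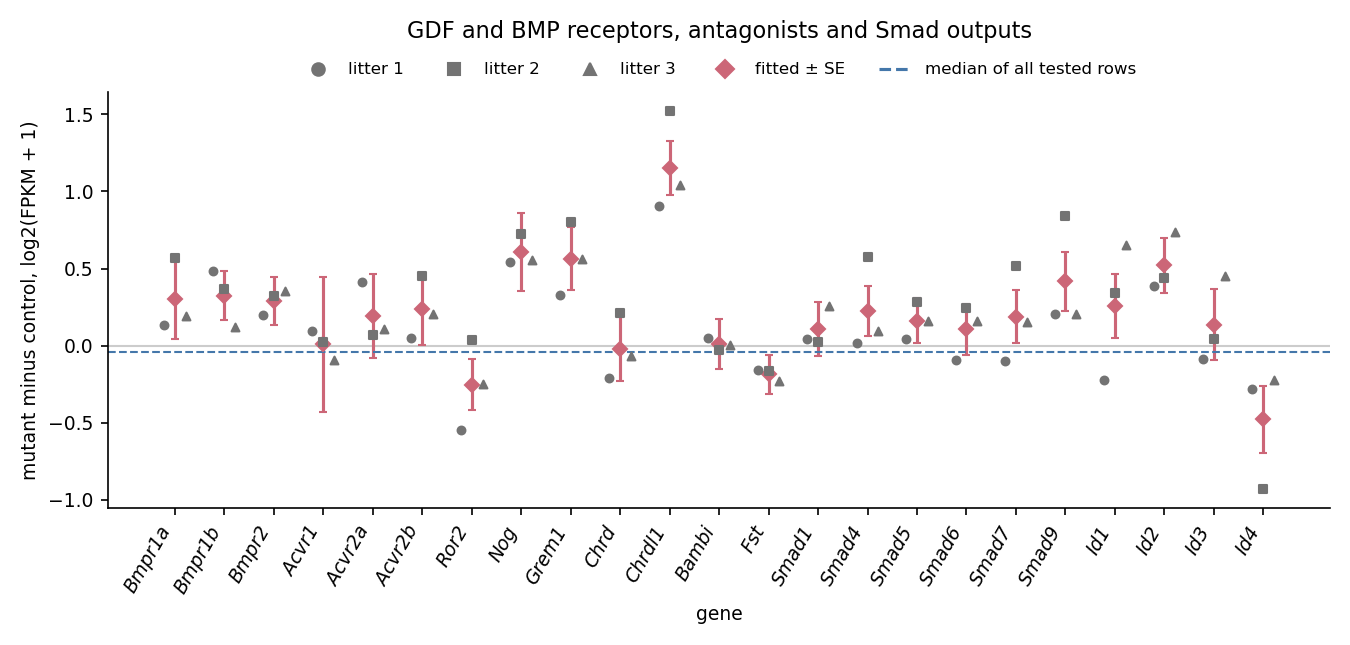
Mutant minus control on the log2(FPKM + 1) scale (vertical axis) for the 23 tested genes of the GDF and BMP list. Grey symbols are single litters, diamonds the fitted difference with its SE, and the dashed line the median of all tested rows, -0.04. Chrdl1 stands highest at 1.15, and Id4 lowest at -0.48.

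Other lists tied to the members' functions are given by their counts. For comparison, 15.7% of all tested rows were higher and 22.3% lower in 3 litters. Those without overlap made up 4.22% above and 5.03% below. Of 14 further hyaluronan genes matched, 10 were tested, with 3 higher and 0 lower in 3 litters and a median of 0.05. Vcan, the hyaluronan-binding proteoglycan versican, was at 136, 100 and 121 FPKM in controls and 185, 155 and 148 FPKM in mutants, without overlap. Ugdh, which makes the sugar precursor of hyaluronan, was at 58.5 ± 14.9 and 71.3 ± 17.9 FPKM, and the hyaluronidase Hyal2 at 46.8 ± 3.53 and 40.1 ± 5.0 FPKM. For both genes the groups overlapped. Of 16 other Wnt ligands 6 were tested, with 0 higher and 3 lower in 3 litters and a median of -0.23. Those 3 were Wnt2, Wnt5a and Wnt11, and Wnt2 was without overlap at 4.37 ± 0.325 and 3.03 ± 0.412 FPKM. Wnt5a was at 64.8 ± 9.14 and 54.4 ± 10.7 FPKM and Wnt11 at 52.8 ± 6.10 and 46.0 ± 7.50 FPKM. Wnt target and feedback genes had 1 higher and 2 lower among 10 tested, with a median of 0.10. Wif1, a secreted Wnt inhibitor, was at 27.4, 40.5 and 39.7 FPKM in controls and 13.9, 23.6 and 29.4 FPKM in mutants. Its groups overlapped.

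Cartilage genes, which the interzone turns down, had 4 higher and 4 lower in 3 litters among 18 tested, with a median of 0.12. Over all tested rows the shares were 15.7% and 22.3%. Sox5 and Sox6, partners of Sox9 in cartilage, lay above all controls, at 6.13 ± 0.852 and 11.0 ± 1.45 FPKM and at 7.72 ± 0.644 and 10.2 ± 0.936 FPKM. Comp, a matrix protein of maturing cartilage and tendon, was at 3.96 ± 1.73 FPKM in controls and 1.72 ± 0.562 FPKM in mutants. Its groups overlapped. Relatives of Erg and Dcx and other ETS, GATA and BarH-like genes had 1 higher and 4 lower among 12 tested, with a median of -0.08. Among them Etv4, an ETS target of FGF signalling, lay below all controls at 18.6 ± 2.13 and 10.4 ± 2.84 FPKM. No gene of these lists passed the threshold in limma, with or without litter as a block, and neither did any other tested row.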

How the data were processed

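RNA of cells sorted from E12.5 limbs was sequenced. TopHat, Cuffdiff and the build mm9 are named in the submitters' processing notes. Their versions, the annotation and the strand setting were not given in the sources used here. The authors, per the file headers, normalised values with Cuffdiff's geometric method, stated above each litter, and the deposited values were taken as FPKM, a word the header lacks. The deposited list of names called repressed by Shox2 is another kind of file, without values.

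Groups and litters were read from the labels and header. On log2(FPKM + 1), limma 3.58.1 (R 4.3.3, trend on mean level) compared 3 mutant with 3 control columns. Rows needed 1 FPKM in at least 3 columns, read over all 6 columns in each alternative. P-values were Benjamini-Hochberg adjusted over all rows, with a threshold of 0.05. A second fit had litter as a block, whose term was tested by limma's F test. The fit was tested on simulated data. Litter numbers mark a shared litter, per the sample descriptions. Across genes, the control and mutant deviations from group means correlated at 0.873, 0.568 and 0.770. In litters 1, 2 and 3, 8.13%, 6.12% and 44.5% of rows under 0.15 FPKM had log2 ratios within 0.05 of -1, 0 or 1. Depth was therefore not recovered, and no interval from counts is given.

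Members and lists were chosen with earlier results of these data known. Named genes were the members, up to 3 genes per list with the smallest unadjusted p, 5 rows most like Gdf5 and 2 most like each other member, with Shox2, Xist, Eif2s3y and Kdm5d. Others are marked where named or stand for a marker list: Prrx1, Twist1, Egfl7 and Ptprc. Alternatives were litter as a block, another pseudocount, other filters, quantile normalisation, column weights, and leaving out columns or litter pairs.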

Additional observations from a re-analysis of the deposited data

How the results depend on the processing

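With the replicate block for litter, called rows stayed at 0 in each direction, while those at an unadjusted p under 0.05 went from 439 to 1433. Column weights gave 12 rows higher and 3 lower. The block gave 315 higher and 219 lower when the litter 2 pair was left out, and 31 higher and 5 lower when the litter 3 pair was. Leaving out 1 column gave 0 to 1 higher (control 3 left out) and 0 to 1 lower (mutant 3 left out). The litter term passed for 1006 rows with no filter on low values, 63 with the litter 1 pair dropped and 5411 with the litter 2 pair dropped, against 2595. Wnt4 then lost its litter call with no filter (limma adjusted p = 0.131) and when rows averaging under 5 FPKM were dropped (0.0885), and Barx1 with no filter (0.0944). The row naming Trps1 gained a litter call without the litter 3 pair (limma adjusted p = 0.00203). The cause of these shifts was not tested.

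Over 18 alternatives the mutant minus control value of Gdf5 ran from 0.99 to 1.23 and that of Dcx from 0.32 to 0.69 on the log2 scale. Wnt9a ran from -0.42 without mutant 2 to -0.0042 without mutant 1, and Wnt4 from -0.54 without mutant 2 to -0.06 with column weights and -0.09 without mutant 1, so neither kept its size. Neither they nor Gdf5 and Dcx changed sign in the alternatives run, and the other 6 members did in 3 to 5. The row naming Trps1 ran from -1.77 with column weights to 0.79 with the block and without the litter 3 pair. In limma Gdf5 passed the threshold with column weights and in the block without the litter 2 pair, where Dcx and the row naming Trps1 passed too, but the members were chosen on this contrast. Of 178 recomputed member values, 173 moved by less than 1 SD, a count that does not measure stability. Litter as a block and the filters could not change a fitted difference. Each pair left out gave the same value with and without the block. The SD includes the spread between litters, so Barx1 at -0.314 and 0.325 counted among the 173. Alternatives without a litter pair and no block were added after the data were seen.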
